A study of Homo sapiens with 6 samples.

Results

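The regions described here are 4073 stretches of the autosomes where histone H4 lactylated at lysine 5 (H4K5la) formed a peak inside the span of a noncoding RNA gene and away from protein-coding genes. They came from 71122 merged regions. Peaks of 4 ChIP-seq libraries that shared at least 1 bp were merged, and an autosomal region was kept when it overlapped a RefSeq noncoding RNA gene and lay over 1 kb and at most 100 kb from the nearest RefSeq protein-coding gene span. All libraries came from PLC/PRF/5, an established human hepatocellular carcinoma line. The lactate group had 20 mM lactate in the medium for 24 h, and the control group did not. Each group had 2 ChIP libraries, numbered 2 and 3 in the titles, and 1 input library, which was not analysed here beyond its role in the authors' peak calls. The labels do not say whether the 2 libraries of a group came from separate cultures, so p-values measure only the spread between these libraries.

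Noncoding RNA genes are transcribed into RNAs that are not translated. Long noncoding RNAs (lncRNAs) include nuclear scaffolds, antisense and divergent partners of coding genes and the hosts of microRNAs, and microRNAs repress target messenger RNAs through a short seed at their 5′ end. Histone lactylation is the attachment of a lactate-derived group to lysine, described as a mark that links lactate levels to chromatin. Many lncRNAs have start sites with the chromatin features of coding promoters, and several have been studied in hepatocellular carcinoma.

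The 4073 regions touched 2219 of the 21172 autosomal noncoding RNA genes of the table (10.5%). Of these genes, 2161 were lncRNA genes out of 17525, 41 were microRNA genes out of 1793 and 5 were small nucleolar RNA genes out of 1144. The remaining genes were 5 of type misc_RNA, 3 antisense RNA genes, 2 tRNA genes, the vault RNA gene VTRNA2-1 and a gene of type ncRNA, SCARNA2. A lncRNA gene was present in 4028 regions. The regions were 304 to 9874 bp wide with a median of 529 bp. Most genes, 1366 of 2219, held 1 region, and 31 held 10 or more.

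Start windows of 4 lncRNA genes with contrasting patterns are shown because the results return to them. Only peaks of the regions described here count as touching a window. Each runs 300 bases on the gene's strand, from 250 bases before the annotated start to 50 after it, from RefSeq (GRCh38.p14). Capitals mark the GC box GGGCGG or its reverse complement CCGCCC. LOC105372813 (chr21:41668699-41668998, plus strand) lay in the best-ranked region of all. MIR142HG (chr17:58332471-58332770, minus strand) hosts the blood-cell microRNA miR-142, and a peak touched its window in all 4 libraries. MALAT1 (chr11:65497488-65497787, plus strand), an abundant RNA of nuclear speckles, had its window touched in both control and no lactate library. MIR122HG (chr18:58446013-58446312, plus strand) hosts miR-122, the main microRNA of hepatocytes, and its window was touched in lactate 3 and control 3 only.
LOC105372813: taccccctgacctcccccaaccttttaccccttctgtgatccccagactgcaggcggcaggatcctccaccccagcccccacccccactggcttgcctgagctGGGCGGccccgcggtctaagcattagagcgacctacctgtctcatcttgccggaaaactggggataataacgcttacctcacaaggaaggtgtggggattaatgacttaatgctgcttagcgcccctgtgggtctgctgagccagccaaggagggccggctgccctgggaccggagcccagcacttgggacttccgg
MIR142HG: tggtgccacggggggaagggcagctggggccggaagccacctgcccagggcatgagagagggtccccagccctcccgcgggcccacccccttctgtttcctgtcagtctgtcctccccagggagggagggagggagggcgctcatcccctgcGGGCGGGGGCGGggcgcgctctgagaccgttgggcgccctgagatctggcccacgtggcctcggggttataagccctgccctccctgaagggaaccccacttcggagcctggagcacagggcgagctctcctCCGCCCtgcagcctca
MALAT1: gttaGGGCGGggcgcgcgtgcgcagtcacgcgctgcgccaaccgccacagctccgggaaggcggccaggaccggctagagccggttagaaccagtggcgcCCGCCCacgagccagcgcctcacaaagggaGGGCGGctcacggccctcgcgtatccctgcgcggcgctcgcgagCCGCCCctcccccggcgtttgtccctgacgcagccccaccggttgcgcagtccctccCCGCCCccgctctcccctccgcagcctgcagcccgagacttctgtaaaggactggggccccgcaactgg
MIR122HG: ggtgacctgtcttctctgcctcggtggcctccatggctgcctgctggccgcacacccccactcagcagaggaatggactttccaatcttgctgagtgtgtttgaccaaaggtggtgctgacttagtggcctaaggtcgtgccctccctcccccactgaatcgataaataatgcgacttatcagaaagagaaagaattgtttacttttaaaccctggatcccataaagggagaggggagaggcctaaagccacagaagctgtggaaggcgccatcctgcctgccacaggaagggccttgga

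Of the 41 microRNA genes, 38 had a mature sequence in the RefSeq table. Selected mature microRNAs of regions found in all 4 libraries come first, and those of MIR337, MIR4725, MIR183 and MIR96 are not printed. The last 3 come from other regions. They were chosen after their values were seen because they are well known in liver or as a p53 target. Capitals mark the seed, bases 2 to 8. Among the 65 mature sequences of these genes there were 64 different seeds, and the shared seed AGUGCAA belonged to miR-130b-3p and miR-301b-3p, which lie in the same region.
hsa-miR-133a-3p: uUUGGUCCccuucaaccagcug
hsa-miR-1257: aGUGAAUGauggguucugacc
hsa-miR-142-3p: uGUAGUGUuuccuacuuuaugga
hsa-miR-296-5p: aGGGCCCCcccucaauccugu
hsa-miR-6085: aAGGGGCUgggggagcaca
hsa-miR-365b-3p: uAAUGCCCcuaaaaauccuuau
hsa-miR-23a-3p: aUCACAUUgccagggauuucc
hsa-miR-27a-3p: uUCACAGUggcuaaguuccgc
hsa-miR-24-3p: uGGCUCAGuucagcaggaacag
hsa-miR-130b-3p: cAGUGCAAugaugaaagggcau
hsa-miR-301b-3p: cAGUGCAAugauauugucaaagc
hsa-miR-192-5p: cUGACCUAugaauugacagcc
hsa-miR-194-5p: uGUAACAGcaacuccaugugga
hsa-miR-34a-5p: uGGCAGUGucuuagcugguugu

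The comparison asked how H4K5la at these genes differed after lactate. Noncoding RNA gene regions held fewer and narrower peaks in the lactate libraries. There were 2222 peaks in lactate 2 and 2267 in lactate 3, against 2967 in control 2 and 3014 in control 3, and the groups did not overlap. The mean was 2244.5 ± 31.8 in lactate and 2990.5 ± 33.2 in control (SD, n = 2 each), a ratio of 0.751. Peaks covered 1.32 and 1.31 Mb in the lactate libraries and 2.36 and 2.35 Mb in the control libraries, a ratio of 0.559. The median peak was 453 and 436 bp wide in lactate against 542 and 540 bp in control, a ratio of 0.822. Each of these differences was larger than the spread between libraries of a group. Exact two-sided permutation tests gave p = 0.333 for each, the smallest value that the 6 possible assignments of 2 against 2 libraries allow, so p < 0.05 could not be reached.

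**Figure D1:**
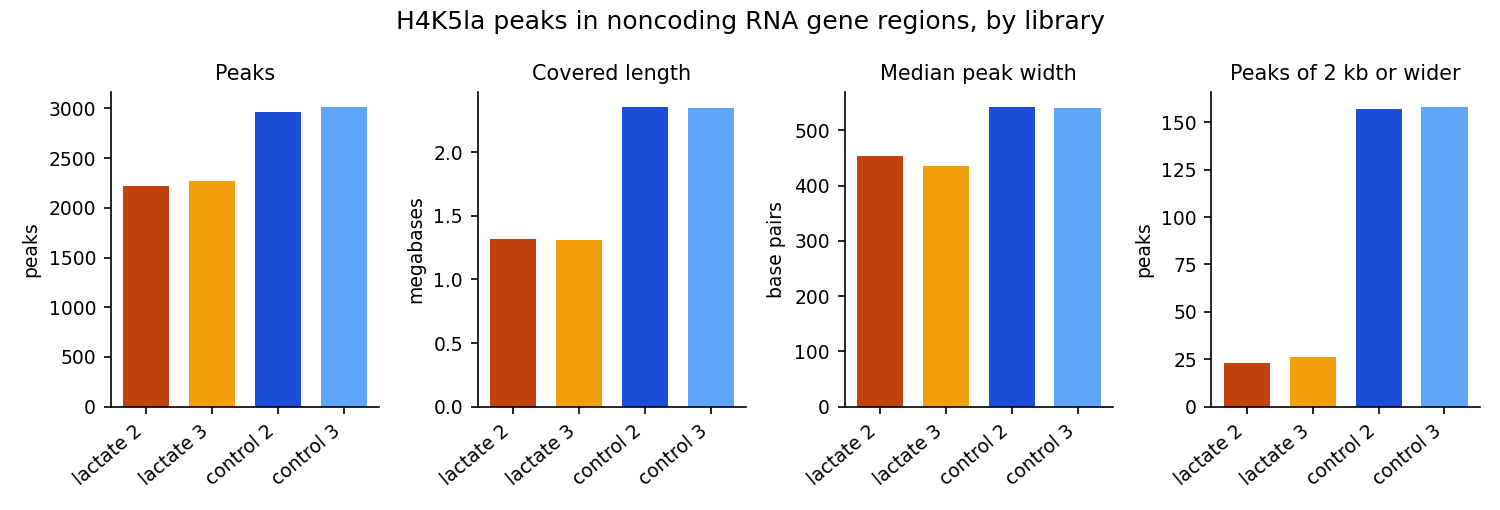
H4K5la peaks in noncoding RNA gene regions in each library, from left to right the number of peaks, the covered length in megabases, the median peak width in base pairs and the number of peaks of 2 kb or wider. Each bar is 1 library. Both lactate bars are lower than both control bars in every panel, and the gap is widest for peaks of 2 kb or wider, with 23 and 26 against 157 and 158.

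The whole lists moved the same way. They held 37951 and 38402 peaks in lactate 2 and 3, against 52215 and 52959 in control 2 and 3. As a share of each library's own list, noncoding RNA gene regions took 5.85% and 5.90% in lactate and 5.68% and 5.69% in control, a difference of 0.192 percentage points, or 0.087 with lists of equal length. Sequencing depth also moved with the groups. Relative to control 2, the ChIP depth recovered from the deposited values was 0.786 in lactate 2, 0.887 in lactate 3 and 0.940 in control 3, and its part in the peak numbers was not tested. With the 37951 strongest peaks of each library, the peak number in noncoding RNA gene regions had a lactate-to-control ratio of 1.02, and the covered length one of 0.688.

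Fewer noncoding RNA genes carried a peak after lactate. Peaks touched 1326 and 1314 genes in lactate 2 and 3, against 1693 and 1736 in control 2 and 3, a ratio of 0.770 (p = 0.333, exact permutation test). With equal peak numbers per library the ratio was 0.972. Peaks that reached within 1 kb of either end of their gene made up 32.5% and 32.3% in lactate and 33.9% and 34.8% in control. The difference of −1.92 percentage points was −1.14 without control 3. The median fold enrichment over the local background, as the authors' caller gave it, was 7.25 and 7.44 in lactate and 7.36 and 7.81 in control. Those values overlapped between the groups, with a ratio of 0.968 (p = 0.667, exact permutation test). With equal peak numbers per library the ratio of median folds was 0.870 (p = 0.333, exact permutation test).

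A region was called by the libraries that held a peak in it. Peaks stood in all 4 libraries at 1192 noncoding RNA gene regions (29.3%), against 28.8% of all merged regions. Another 110 (2.70%) had a peak in both lactate and no control library, which is called lactate-only here, against 2.75% of all merged regions. A further 569 (14.0%) were control-only, with a peak in both control and no lactate library, against 14.6% of all merged regions. These shares were close to the background of the whole series. A peak in 1 library alone marked 1292 regions, and the other 910 had another mix of libraries. Of the 1501 regions held by both lactate libraries, 92.7% had a control peak too. Of the 2188 held by both control libraries, 26.0% had no lactate peak. With lists of equal length there were 199 lactate-only and 286 control-only regions.

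**Figure D2:**
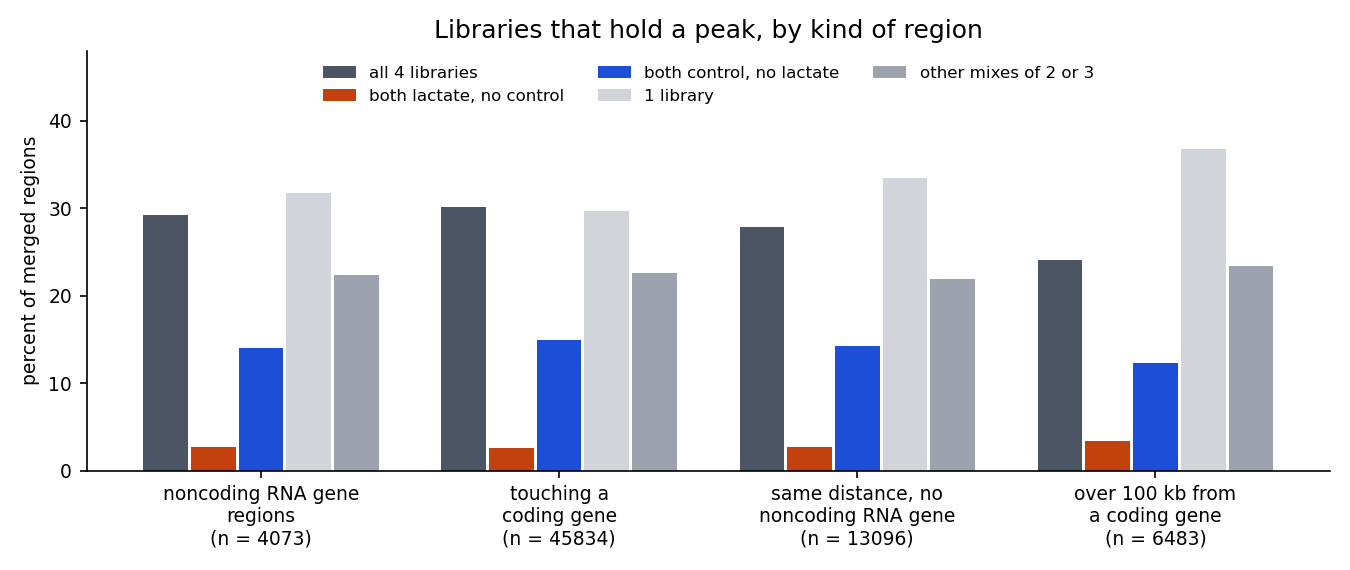
Percent of merged regions by the libraries that hold a peak, for noncoding RNA gene regions and 3 other sets of autosomal regions. Noncoding RNA gene regions had 29.3% in all 4 libraries, 2.70% lactate-only and 14.0% control-only, close to regions that touch a coding gene with 30.2%, 2.64% and 15.0%.

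Pairs of libraries from different groups shared few regions that no other library held, from 66 to 77 a pair. The 2 lactate libraries alone shared 110, and the 2 control libraries alone shared 569, which are the lactate-only and control-only regions above. Pairs from different groups were not counted for other sets of regions. At the same distance from coding genes but outside noncoding RNA genes, 27.8% of 13096 regions were in all 4 libraries, 2.66% were lactate-only and 14.2% were control-only. Regions over 100 kb from a coding gene had 24.0% in all 4 libraries.

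Wide peaks differed most between the groups. Lactate 2 and 3 had 23 and 26 peaks of 2 kb or wider in noncoding RNA gene regions, against 157 and 158 in control 2 and 3, a ratio of 0.156 (p = 0.333, exact permutation test). No lactate peak reached 5 kb, while 17 and 16 control peaks did. The widest was 4036 and 4376 bp in the lactate libraries and 8965 and 9223 bp in the control libraries. Both control libraries had such a wide peak at 124 regions, with a median narrower width of 2760.5 bp. Both lactate libraries still had a peak at 120 of them (96.8%), with an average of 2.14 peaks in a lactate library at those 120, against 1.17 in a control library over the 124. The widest peak of a lactate library there, averaged over the 2 lactate libraries, had a median of 1204 bp. At 12 regions both lactate libraries still reached 2 kb. These regions were chosen by the width of their control peaks, so narrower lactate peaks there are in part set by the choice. Regions chosen by wide lactate peaks were not examined, and the same counts were not made for other sets of regions.

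The widest control peaks lay in 5 regions, which were chosen by control width alone. TMEM105, listed as a lncRNA gene, had 5 peaks in each lactate library, the widest 2566 and 2589 bp, where each control library had 1 peak of 8965 and 8914 bp (chr17:81327261-81336225). LOC105376995, 53371 bp from GATA5, a gene of an endoderm and heart transcription factor, had lactate peaks of at most 2801 and 1739 bp and control peaks of 8841 and 9223 bp (chr20:62529366-62538612). At LOC124900931 (chr5:956066-963987) the widest lactate peaks were 1302 and 1507 bp, against 7921 and 7769 bp in control. LINC00163 (chr21:44984356-44993619) had 2329 and 2385 bp in lactate, against 7635 and 9221 bp in control. The region of MIR1-1HG, host of the muscle microRNAs miR-1 and miR-133a, kept the widest lactate peaks of the 5, with 4036 and 4176 bp, against 7512 and 7400 bp in control (chr20:62560969-62568480). In each of the 5 regions the lactate signal was called as 3 to 6 separate peaks.

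**Figure D3:**
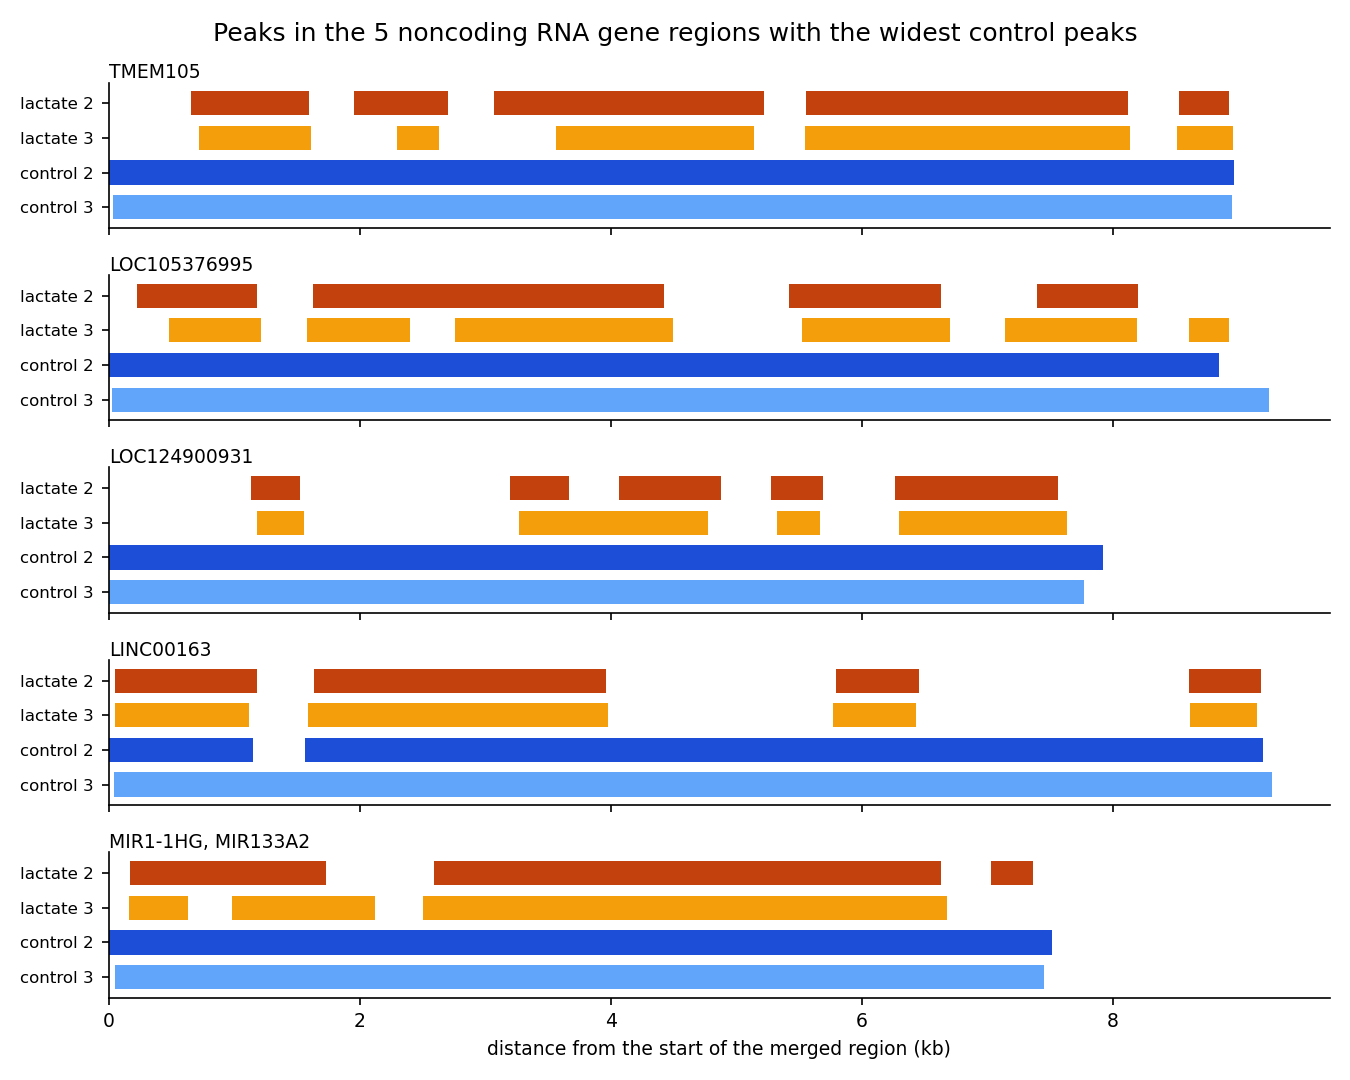
Peaks in the 5 noncoding RNA gene regions with the widest control peaks. The horizontal axis is the distance from the start of the merged region in kb, and each bar is a called peak in the library named at the left. Lactate libraries show 3 to 6 separate bars in each region, and control libraries 1 or 2 long ones.

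Of the other 4 wide regions, 3 had a peak in 1 lactate library and 1 had none. The region with none was in LINC02247 (chr9:134291383-134295720), 30735 bp from RXRA, the gene of the retinoid X receptor alpha. No lactate library had a peak there, against 4338 and 4290 bp in control 2 and 3 with folds of 8.57 and 8.46.

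Ranking by the authors' fold within each library named the strongest regions of each kind. Folds of the 2 groups are given as deposited and were not put on a common scale for depth. Among regions in all 4 libraries, the first touched LOC105372813 and LOC107985478, 69579 bp from RIPK4, and holds the LOC105372813 window printed above (chr21:41668103-41669794). Its fold was 21.4 and 24.7 in lactate 2 and 3, against 17.0 and 18.9 in control 2 and 3. A second region inside LOC105372813 stood right beside it, with folds of 15.5 and 20.7 in lactate and 14.7 and 20.5 in control. LOC105371031, 53649 bp from RHCG, had 19.4 and 26.4 in lactate and 15.3 and 15.5 in control. Lactate folds were higher than both control folds at the first region and at LOC105371031, and the groups overlapped at the second LOC105372813 region. How often group folds separated was not counted over all noncoding RNA gene regions, so such separations here and below have no background.

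LINC02883 had folds of 15.1 and 17.0 in lactate and 18.5 and 16.2 in control, 2362 bp from KLHL25. LINC00927, 71876 bp from ARNT2, whose protein partners other bHLH-PAS transcription factors, had 19.7 and 14.7 in lactate and 13.9 and 17.3 in control. LINC00029 had 13.8 and 23.3 in lactate and 15.0 and 16.1 in control. The remaining named regions were in APCDD1L-DT, with 16.3 and 18.6 in lactate and 16.6 and 13.6 in control, and in CEP72-DT with LOC105374608, with 13.8 and 20.0 in lactate and 13.9 and 17.0 in control. The lactate and control folds of all 5 overlapped.

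**Figure D4:**
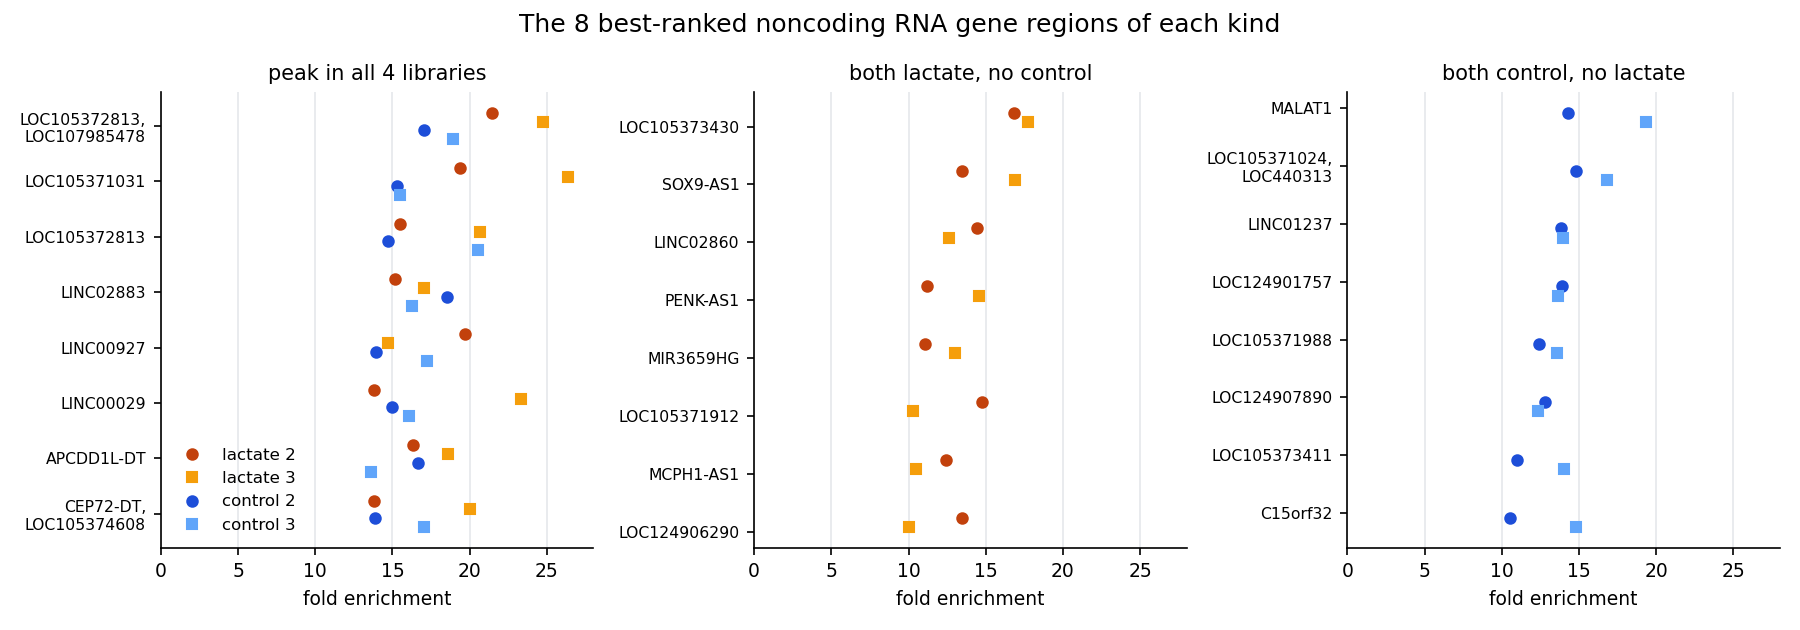
Fold enrichment over the local background, as the authors' caller gave it, for the 8 best-ranked noncoding RNA gene regions of each kind. Each point is the strongest peak of 1 library, and a library with no point had no peak. The lactate-only regions run from 10.02 to 17.7 and the control-only regions from 10.5 to 19.3.

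The strongest lactate-only regions were narrow. LOC105373430, 22643 bp from the lipid phosphatase gene LPIN1, led with folds of 16.8 and 17.7 in lactate 2 and 3 and no control peak (chr2:11850052-11850514). SOX9-AS1 followed with 13.5 and 16.9, 10301 bp from SOX9, a transcription factor of bile duct and progenitor cells (chr17:72110239-72110719). LINC02860 near SKAP2 had 14.4 and 12.6. PENK-AS1 had 11.2 and 14.6, MIR3659HG near the POU gene POU3F1 had 11.1 and 13.0, and LOC105371912 had 14.8 and 10.3. LOC105371912 lay 30952 bp from SOCS3, an inhibitor of cytokine signalling. MCPH1-AS1 had 12.4 and 10.5, and LOC124906290 had 13.5 and 10.02. These peaks were 339 to 481 bp wide.

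MALAT1 led the control-only regions. No lactate library had a peak at its start, against folds of 14.3 and 19.3 and widths of 896 and 1101 bp in control 2 and 3 (chr11:65497514-65498614). Both control peaks reached into the MALAT1 window printed above, which holds 5 GC boxes and is 73.7% G or C. LOC105371024 with LOC440313 had 14.8 and 16.8 in control. A region inside LINC01237 had 13.9 and 14.0, and LOC124901757, 1468 bp from the histone demethylase gene KDM7A, had 13.9 and 13.7. LOC105371988 had 12.4 and 13.6, LOC124907890 near AMER3 had 12.8 and 12.4, LOC105373411 near ID2 had 10.96 and 14.0, and C15orf32 had 10.5 and 14.8.

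The genes with the most regions were lncRNA genes of 69.2 to 311 kb. LINC01237 on chromosome 2 held 31 regions in 197 kb, 12 of them in all 4 libraries and 9 control-only. Its peaks numbered 17 and 15 in lactate 2 and 3, against 25 and 27 in control 2 and 3. PITX1-AS1, antisense to the limb and pituitary factor gene PITX1, held 30 regions in 311 kb, with 10 and 15 peaks in lactate and 19 and 23 in control. LRRK1-AS1 held 22 regions in 110 kb, 13 of them in all 4 libraries, and its peak numbers overlapped between groups, with 19 and 15 in lactate and 20 and 18 in control.

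APCDD1L-DT held 21 regions, with 12 and 13 peaks in lactate and 22 and 16 in control. LALTOP held 17, with 11 and 12 peaks in lactate and 13 and 14 in control. B3GAT1-DT and LHX1-DT held 16 each. The peaks of B3GAT1-DT overlapped between groups, with 10 and 13 in lactate and 14 and 10 in control, and it had no control-only region. LHX1-DT, divergent to the kidney and head organiser gene LHX1, had 6 and 9 peaks in lactate and 12 and 11 in control. Among these 7 genes, 1 region was lactate-only, in LRRK1-AS1.

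Regions touched 41 microRNA genes in 30 places. Of the 41 genes, 18 lay in regions found in all 4 libraries, none in a lactate-only region and 10 in a control-only region. Clusters put several genes in a region, and by region the counts were 13 in all 4 libraries, 0 lactate-only and 8 control-only of 30, against 29.3%, 2.70% and 14.0% of all noncoding RNA gene regions. Another 7 lay in a region of 1 library and 6 in other mixes. The best-ranked region was the wide MIR1-1HG region that holds MIR133A2, with folds of 13.1 and 12.4 in lactate against 19.3 and 18.3 in control. Those are the strongest peaks of the region. The lactate peaks that cover MIR133A2 itself had folds of 4.82 and 5.195. MIR142, from a host gene of blood cells, lay in a region of 3100 bp whose widest peaks spanned 3028 and 3100 bp in lactate and 2987 and 2548 bp in control (chr17:58330539-58333638). Its folds were 18.5 and 14.9 in lactate and 14.3 and 6.80 in control, and both lactate values were above both control values.

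MIR296, in the GNAS imprinted locus, had folds of 6.91 and 6.39 in lactate, against 14.2 and 15.1 in control (chr20:58817176-58818213). MIR1257 had 8.64 and 8.53 in lactate and 10.5 and 14.0 in control. MIR6085 had 13.2 and 8.25 in lactate and 7.56 and 10.4 in control, which overlap. MIR365B and MIR4725 share a region with 8.69 and 13.0 in lactate and 5.64 and 6.34 in control. The other named genes were MIR596, with 6.68 and 5.07 in lactate and 10.4 and 14.8 in control, and MIR4294, with 7.25 and 7.01 in lactate and 6.83 and 10.6 in control.

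Clusters chosen after their values were seen held several microRNAs in a single region. MIR23A, MIR27A and MIR24-2, processed from the same transcript, lay in a region with folds of 10.3 and 7.82 in lactate and 4.47 and 4.93 in control (chr19:13835874-13837259). The region of MIR130B and MIR301B, whose 3p arms carry the same seed, had 6.29 and 4.81 in lactate and 5.13 and 5.85 in control (chr22:21651716-21653346). MIR192 and MIR194-2, microRNAs abundant in liver and gut, lay in a control-only region with folds of 5.28 and 5.89 in control (chr11:64891218-64891665). MIR34A, a direct target of p53, had a peak in control 3 alone, with a fold of 5.60.

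Other small RNA genes were few. VTRNA2-1, a vault RNA gene, had folds of 15.5 and 7.72 in lactate and 9.35 and 11.1 in control (chr5:136080484-136081009). A region over SNORD88A and SNORD88B, guides of RNA modification, was in all 4 libraries. The tRNA gene TRC-GCA11-1 lay in a lactate-only region with folds of 10.4 and 6.58 in lactate.

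Lists of known genes were counted next. Over all lncRNA genes, 2161 of 17525 (12.3%) held a noncoding RNA gene region and 831 held one in all 4 libraries. Genes with a lactate-only or control-only region were not counted over all noncoding RNA genes, so such counts in the lists have no background. A gene with several regions can also count under more than 1 kind. Among 17 hepatocyte and liver lncRNA genes, 7 held a noncoding RNA gene region, against 12.3% of all lncRNA genes, with 1 of the 7 in all 4 libraries, 1 lactate-only and 1 control-only. LINC01348 had folds of 8.80 and 12.4 in lactate and 12.5 and 16.2 in control at its start (chr1:235069483-235070600). LINC00261, a neighbour of the endoderm factor gene FOXA2, had 10.1 and 8.30 in lactate and no control peak (chr20:22560742-22561115). MIR122HG had a peak in lactate 3 with a fold of 9.16 and in control 3 with a fold of 3.06, so replicates differed within both groups. FAM99A had peaks in 3 libraries, LINC01554 in lactate 2 and control 2, FAM99B in control 2 and LINC01018 in control 3. HNF4A-AS1 touched only regions that the distance rule leaves out.

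Of 44 hepatocellular carcinoma lncRNA genes found in the table out of 47 listed, 15 held such a region, against 12.3% of all lncRNA genes. Regions in all 4 libraries occurred at 3 of the genes, lactate-only regions at 4 and control-only regions at 3. The last 2 counts have no share of all lncRNA genes to be set against. NEAT1, the scaffold of nuclear paraspeckles and neighbour of MALAT1, held 2 regions, both by the upper end of its span at 65445540. The region in all 4 libraries had folds of 7.39 and 7.31 in lactate and 4.95 and 5.47 in control (chr11:65444429-65445039). The other had no peak in lactate 2, 7.68 in lactate 3, and 4.29 and 6.65 in control (chr11:65445382-65446210). LINC01134 held 7 regions, and its strongest had 11.2 and 10.005 in lactate and 10.1 and 5.32 in control. LINC-ROR, named for reprogramming to pluripotency, had 13.0 and 8.30 in lactate and no control peak (chr18:57062688-57063222). HOTAIR, a HOXC cluster lncRNA, held 4 regions, of which 1 was control-only. SNHG16 lacked a peak in lactate 2 alone. Another 4 genes of the list, H19, SNHG6, CASC15 and MYCNOS, touched only regions that the distance rule leaves out.

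Of 23 lncRNA genes listed for glycolysis, hypoxia or lactate, 14 were found in the table. A region was held by 2 of the 14, close to the 12.3% of all lncRNA genes, and neither was in all 4 libraries. PRECSIT had 4.25 in lactate 3 and no peak in lactate 2, against 9.30 and 8.29 in control. LINC01554 was also on the liver list. IDH1-AS1 touched only a region that the distance rule leaves out.

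Among 19 imprinted noncoding RNA genes found out of 21 listed, 4 held a region, against 10.5% of all noncoding RNA genes, with 3 in all 4 libraries, 2 with a control-only and 1 with a lactate-only region. GNAS-AS1 had 11.6 and 13.5 in lactate and 13.6 and 10.5 in control at its strongest region (chr20:58822056-58824243). MEG3, expressed from the maternal chromosome, held 5 regions, 2 of them in all 4 libraries and 3 in control 3 alone, and those in control 3 alone included its start. It stands on 3 of the lists. SNHG14, the host of small nucleolar RNAs in the Prader-Willi region, held 8 regions, with 1 each in all 4 libraries, lactate-only and control-only. MEG9 had a peak in control 2 alone. The listed genes H19, KCNQ1OT1, MEG8, PEG13 and MESTIT1 touched only regions that the distance rule leaves out.

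Of 43 microRNA host genes found out of 49 listed, 9 held a region, against 12.3% of all lncRNA genes. Of the 9, 5 had one in all 4 libraries, 4 had a control-only and 1 had a lactate-only one. MIR9-3HG held 7, the strongest with 9.20 and 12.2 in lactate and 9.996 and 14.3 in control. MIR34AHG held 6, with 1 in all 4 libraries and 2 control-only. MIR193BHG had 6.29 and 8.33 in lactate and 10.97 and 6.61 in control. MIR29B2CHG and MIR194-2HG had a control-only region each, and MIR4435-2HG a lactate-only one. A merged region of any kind touched 19 of the 43. Several hosts thus touched only regions that the distance rule leaves out, MIRLET7BHG with 14 of them.

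Markers of other cell types were present as well. Of 24 such genes found out of 25 listed, 11 held a region, against 12.3% of all lncRNA genes. Of the 11, 7 had one in all 4 libraries, 1 had a control-only and 1 a lactate-only one. They included SOX2-OT of neural cells, with 11.2 and 12.7 in lactate and 13.2 and 10.3 in control. MIR142HG and the B-cell gene LINC00926 represented blood cells. MIAT had 10.6 and 7.01 in lactate and 9.52 and 6.47 in control. FENDRR of mesenchyme had 5.30 and 7.01 in lactate and 4.82 and 6.67 in control. CARMN of smooth muscle held 4 regions with none in all 4 libraries. A merged region of any kind touched 15 of the 24 genes. The other 9 touched none, namely MIR155HG, RMST, MIR124-1HG, LINCMD1, MYOSLID, MIR133A1HG, LINC00520, MIR126 and LINC01235. These libraries are bulk ChIP of 1 cell line, and no cell type was named from a peak at a marker gene.

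Summits were counted along the territory that the rule allows, in zones chosen after the data had been seen. Noncoding RNA gene spans over 1 kb and at most 100 kb from a coding gene made up 156 Mb. They held 12.8 and 13.2 summits per Mb in lactate and 17.6 and 17.9 in control. Territory at the same distance outside noncoding RNA genes held 12.4 and 12.4 in lactate and 17.2 and 17.4 in control. The gene spans were 1.02 to 1.06 times as dense in each of the 4 libraries (p = 0.125, exact sign-flip test, the smallest 4 libraries allow). Coding gene spans were denser, with 20.4 and 20.7 summits per Mb in lactate and 27.9 and 28.5 in control.

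Starts of lncRNA genes stood out within their genes. For starts and far ends alike, only bases inside the spans of genes with an annotated start were counted. Within 1 kb of an annotated start there were 51.0 and 51.8 summits per Mb in lactate and 65.7 and 71.6 in control. The rest of the same genes held 11.3 and 11.7 in lactate and 15.5 and 15.8 in control. Starts were 4.51 and 4.42 times as dense as the rest in lactate and 4.23 and 4.54 times in control (p = 0.125, exact sign-flip test over 4 libraries). The far end of the gene was 2.08 and 2.17 times as dense in lactate and 1.89 and 2.07 times in control. The start ratio overlapped between lactate and control (p = 1, exact permutation test), and the far-end ratio did not (p = 0.333, exact permutation test).

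**Figure D5:**
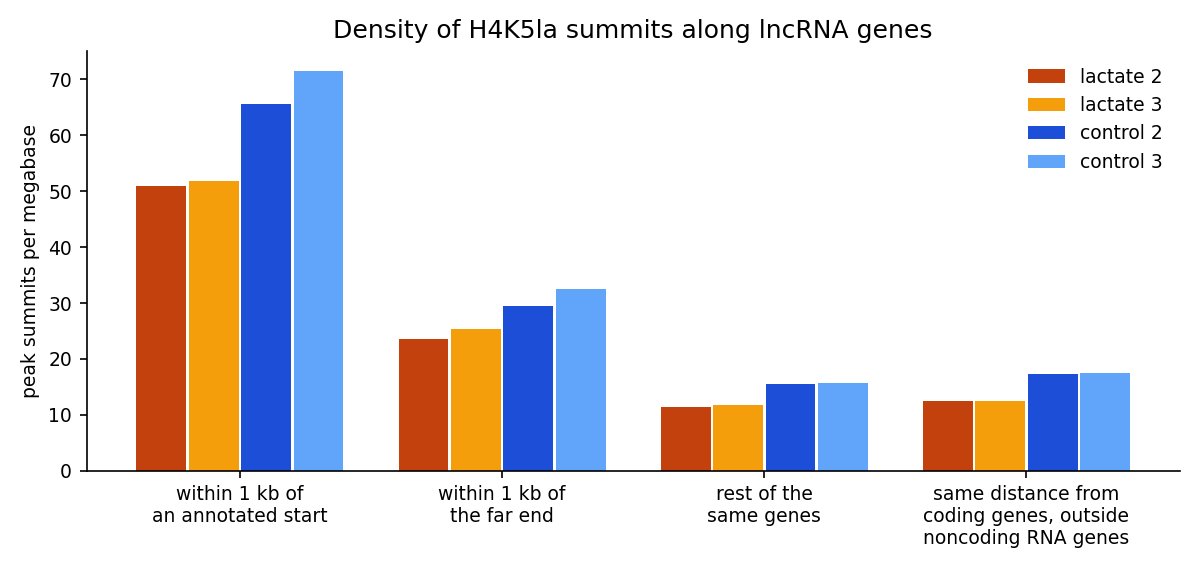
Peak summits per megabase within 1 kb of annotated lncRNA starts, within 1 kb of the far end of the same genes, in the rest of those genes and at the same distance from coding genes outside noncoding RNA genes. Each bar is 1 library. The start and far-end zones count only bases inside the gene spans. Starts reach 51.0 and 51.8 in lactate and 65.7 and 71.6 in control, above every other zone in each library.

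Start windows of 300 bases were examined for the same genes. There were 4232 windows over 1 kb and at most 100 kb from a coding gene. Only peaks of noncoding RNA gene regions were counted. Such peaks touched 270 and 272 windows in lactate 2 and 3, against 413 and 414 in control 2 and 3. The ratio was 0.655 (p = 0.333, exact permutation test). With lists of equal length the ratio was 0.843. Windows touched in all 4 libraries numbered 168, from 150 genes. Their median G and C content was 61.7% and they held a median of 12 CpG sites, against 47.7% and 3 in the 3701 windows with no such peak. Peaks of other regions may touch some of the 3701 and were not counted. The letters GGGCGG occurred on either strand in 41.7% of the 168 windows and in 16.3% of the 3701. Over all 35097 promoters of the table, coding ones included, the share was 44.9%. TATAAA, searched on both strands, occurred in 3.57% of the 168 and 15.8% of the 3701, with 11.5% over all promoters. The palindrome CACGTG occurred in 7.14% and 5.19%, with 7.25% over all promoters. Of the printed windows, MALAT1 held 5 GC boxes, MIR142HG 3, LOC105372813 1 and MIR122HG none.

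Kinds of gene name differed in how many genes were touched. LINC genes held a region in 415 of 2264 (18.3%), uncharacterised LOC genes in 1327 of 12546 (10.6%) and antisense or overlapping genes in 209 of 2038 (10.3%). Divergent transcripts held one in 70 of 579 (12.1%) and microRNA hosts in 21 of 82 (25.6%). The highest share was in small nucleolar RNA hosts, with 8 of 29 (27.6%), and the lowest in microRNA genes, with 41 of 1793 (2.29%). Gene length was not matched between these kinds. Regions in antisense or overlapping genes were in all 4 libraries in 22.4% of 468, those in LINC genes in 30.5% of 840, those in small nucleolar RNA hosts in 12.5% of 16 and those in microRNA genes in 43.3% of 30, against 29.3% of all noncoding RNA gene regions.

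Chromosomes differed in density. Per Mb of noncoding RNA territory, chromosome 22 held 67.6 regions and chromosome 20 held 61.6, while chromosome 4 held 6.92. The ratio of lactate to control summits ranged from 0.564 on chromosome 1 to 0.919 on chromosome 21. The outer 5 Mb of chromosomes, measured to the last RefSeq gene, held 32.1% of noncoding RNA gene regions. The share was 30.7% for regions at the same distance from coding genes with no noncoding RNA gene, and 27.995% for regions that touch a coding gene. Within the outer 5 Mb, 39.0% of noncoding RNA gene regions were in all 4 libraries and the median width was 686 bp, against 24.6% and 487 bp elsewhere. The control-only shares were 14.1% in the outer 5 Mb and 13.9% elsewhere.

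The size of the lactate difference was set against other regions. Peaks at regions touching a coding gene had a lactate-to-control ratio of 0.729, and regions at the same distance outside noncoding RNA genes had 0.710, where noncoding RNA gene regions had 0.751. On the log2 scale the difference in ratio was 0.042 against coding-gene regions and 0.080 against regions at the same distance (p = 0.333 each, exact permutation test), and against coding-gene regions it was 0.022 with lists of equal length. For covered length the differences were 0.097 and 0.037 (p = 0.333 each, exact permutation test). The covered-length difference against regions at the same distance was 0.059 without lactate 2, 0.015 without lactate 3 and 0.020 with lists of equal length (p = 1 for the last, exact permutation test). Regions over 100 kb from a coding gene had a covered-length ratio of 0.603, where noncoding RNA gene regions had 0.559, coding-gene regions 0.523 and regions at the same distance 0.545. Wide peaks had a ratio of 0.156 at noncoding RNA gene regions and 0.107 at coding-gene regions, a log2 difference of 0.54 (p = 0.333, exact permutation test). Against regions at the same distance, which had a ratio of 0.151, the log2 difference was 0.064 (p = 1, exact permutation test) and changed sign, to −0.30, when lactate 3 was left out.

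The median distance of noncoding RNA gene regions to the nearest coding gene was 24680 bp. Regions in all 4 libraries made up 27.7% at 1 to 5 kb, 29.5% at 5 to 20 kb, 30.1% at 20 to 50 kb and 28.7% at 50 to 100 kb. Control-only regions made up 17.2%, 14.7%, 12.8% and 13.1% of the same bands. Just inside the lower bound, 25.8% of the 120 regions at up to 2000 bp were in all 4 libraries, and just outside it, within 1000 bp, 19.8% of 177. At the upper bound the shares were 25.3% of the 162 regions in the last 10 kb inside it and 23.3% of the 159 in the first 10 kb outside it.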

How the data were processed

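Per the labels, chromatin of PLC/PRF/5 cells was immunoprecipitated for H4K5la and sequenced. Reads were trimmed, aligned and freed of duplicates, per the labels' protocols, and the submitters' processing notes name Trimmomatic 0.38, Bowtie2 2.3.4.2, Picard 2.18.11, MACS2 2.2.6 and hg38. The authors deposited 1 peak list per ChIP library, and the caller's settings are not given in the sources used here. Each list gives the authors' score, a fold ratio over the local background, and −log10 p and q values, and every deposited −log10 q was about 2 or higher. Fold values ranked peaks within a library. Folds of different libraries were also set side by side as deposited, with no adjustment for the differences in depth. No read counts were used.

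From these lists, peaks sharing at least 1 bp were merged, and regions were placed against RefSeq gene spans (GRCh38.p14) with Python 3.11.15, pandas 2.3.3 and numpy 2.4.6. The table's 794 entries whose positions are counted on unplaced, alternate or patch scaffolds were left out, which left 19879 coding genes. Group differences were tested by exact permutation over the 4 libraries, and the code was tested on simulated data. The shared replicate numbers were checked on log2 folds of the 1192 regions in all 4 libraries, where deviations of same-numbered libraries had a correlation of −0.030, so they were not taken as pairs.

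Relative depth was recovered from the deposited fold and −log10 p, which gave whole reads within 0.002 for 100% of 400 peaks per library. Named regions were the 8 best-ranked of each kind, the 6 genes with the most regions (7 because of a tie), the 5 widest, genes of 6 lists, and 8 microRNA genes in all 4 libraries (9 because of a tie). Members, lists and zones were chosen with earlier results of these data known.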

Additional observations from a re-analysis of the deposited data

How the results depend on the processing

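The alternatives took only peaks with −log10 q of 5 or more, limited every list to its 37951 strongest peaks, set bounds of 50 kb or 5 kb, kept lncRNA genes only, asked for 50% reciprocal overlap, left out each library, used the replicate block or, added after seeing the data, kept every entry of the gene table. With lists of equal length the peak ratio was 1.02 in place of 0.751, and there were 199 lactate-only and 286 control-only regions. With the reciprocal overlap, lactate-only regions numbered 299. Leaving out 1 library gave 200 to 303 lactate-only and 769 to 1076 control-only regions, because fewer libraries then have to hold or lack a peak; the control-only count was 1066 without control 2 and 1076 without control 3. The log2 difference in wide peaks against regions at the same distance was −0.034 at the stricter q, −0.25 beyond 5 kb, −0.052 for lncRNA genes only, and −0.30 to 0.43 with 1 library left out. The cause of the other changes was not tested. The other 198 values kept their direction, although some moved by over 1.5 times. The share of a library's peaks differed by 0.087 percentage points with lists of equal length, and the covered-length difference against regions at the same distance ranged from 0.015 without lactate 3 to 0.059 without lactate 2. With the replicate block, which pairs equal numbers, the peak ratio stayed 0.751, and 2 pairs allow no p below 0.5 in an exact sign-flip test. A ratio recomputed without a single library has 2 libraries against 1. Depth differed between groups and read counts were not used. A missing peak therefore means that no signal passed the caller's threshold, and a weak signal cannot be told apart from an absence of the mark.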
